A study of Homo sapiens with 6 samples.

Results

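The genes described here are 40 genes of homologous recombination and the Fanconi anemia pathway, taken as a given list of symbols and found by Ensembl identifier among the 60483 genes counted in A2780 cells. All 40 were among the 16198 genes that had enough reads to be tested. A2780 is an established human ovarian carcinoma line, and its parental cells are called WT. The KO cells are a CDK12 knock-out of the same line, made with a CRISPR/Cas9 plasmid aimed at exon 1 of the gene. The KO group is a single clone, whose genome the study describes as duplicated, so an effect of the edit and a trait of that clone cannot be told apart. Neither group received a drug. Total RNA was sequenced in 3 libraries per group, and each value below starts from reads counted per gene.

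Homologous recombination repairs a broken DNA duplex by copying the sister chromatid. The ends are first resected to single strands, a recombinase is loaded on them with the help of BRCA1, PALB2 and BRCA2, and the joined duplexes are then dissolved or cut apart. The Fanconi anemia pathway meets a crosslink between strands at a stalled fork, where a large core complex and UBE2T attach ubiquitin to FANCD2 and FANCI, which brings in nucleases and hands the break to recombination. Inherited faults in BRCA1, BRCA2 and several partners predispose to ovarian cancer. CDK12 is a kinase that acts on RNA polymerase II during elongation, and its loss is known for lowering long DNA repair genes in other settings.

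Of the 40 members, 8 were higher and 13 lower in KO at an adjusted p under 0.05, and 19 did not pass. Over all genes tested 31.9% were higher, 32.0% lower and 63.9% passed in either direction. The members' share was 52.5% in either direction and 32.5% lower. Without KO replicate 3, 5 members were higher. No member passed the adjusted p together with a log2 fold change above 1 or below -1, thresholds that 8.30% and 7.73% of all genes met, and voom/limma and DESeq2 also gave 0 members, while 21 members had an unadjusted p under 0.05 in edgeR. The median log2 fold change of the members was -0.06, against 0.00 over all genes, and their median absolute log2 fold change was 0.15, against 0.32. The KO values did not overlap the WT values for 24 members, 17 of them lower and 7 higher. Among the 16198 genes tested this held for 66.4%, with 5428 genes lower and 5321 higher. The 95% interval of every one of the 40 members lay between log2 fold changes of -1 and 1. Adjusted p-values here and below come from edgeR and its quasi-likelihood F test, corrected by Benjamini-Hochberg for every gene tested. In such bulk libraries less RNA per cell and fewer cells in a given state cannot be told apart.

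**Figure D1:**
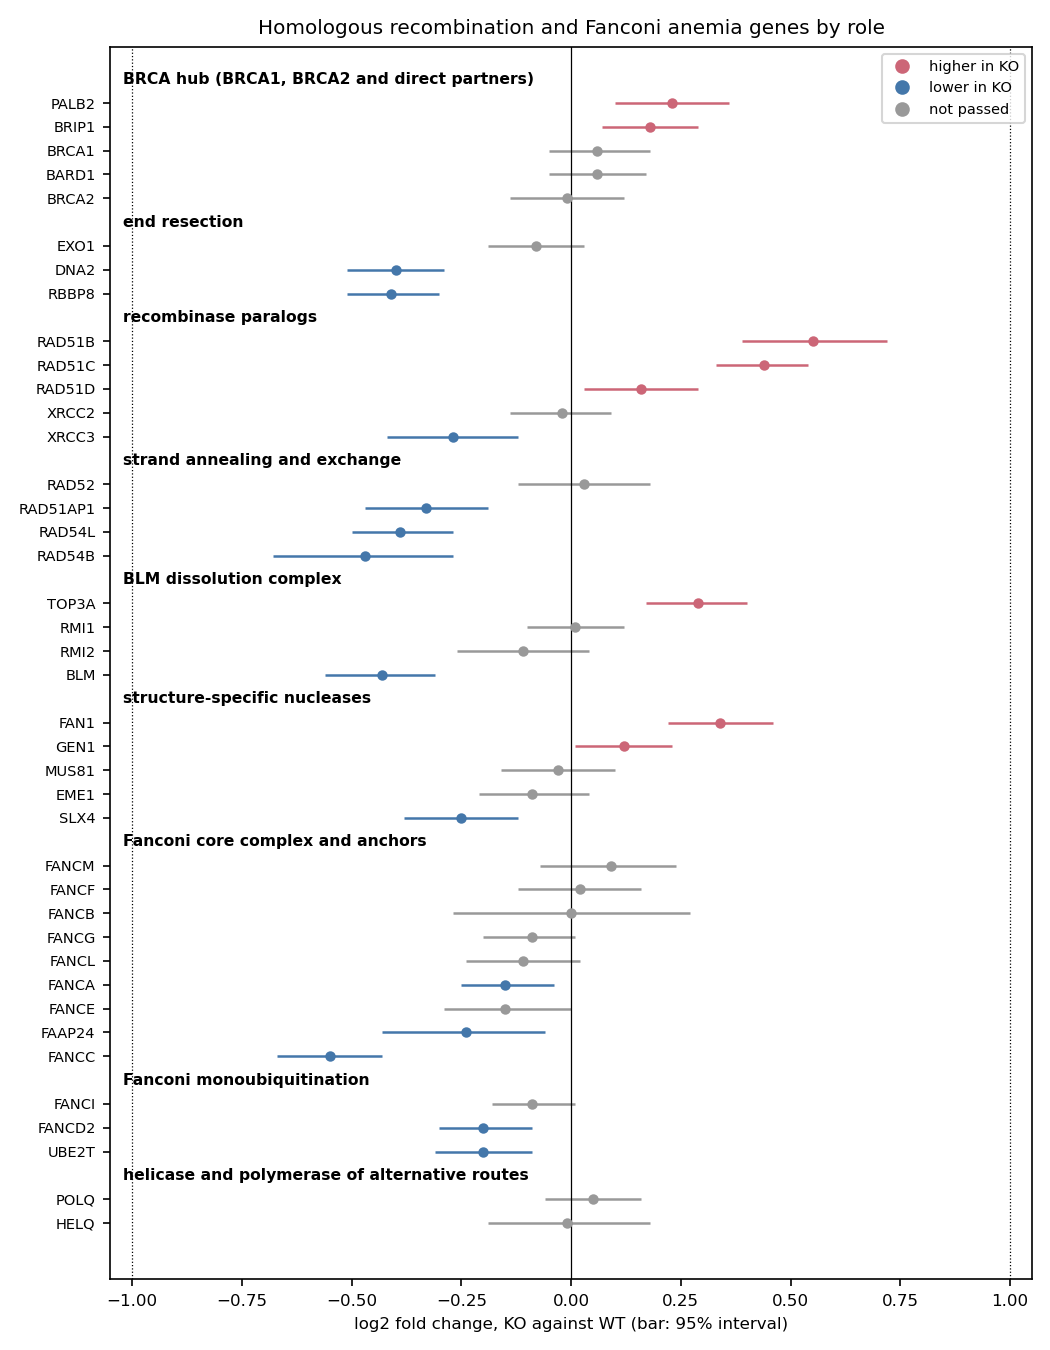
Log2 fold change of KO against WT for the 40 members, grouped by role, with the 95% interval as a bar, dotted lines at -1 and 1, and colours for genes that were higher, lower or did not pass. The largest fall is that of FANCC at -0.55 and the largest rise that of RAD51B at 0.55.

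Libraries held between 11098400 and 30899045 counts, the smallest being WT replicate 3. There 3 counts, the floor used here, correspond to 0.270 CPM, the unit used throughout for counts scaled to a common library total, and the floors cover counting error only. The lowest count of any member in any library was 75, so the members were measured well above the floor. The targeted gene, CDK12, had 103, 125 and 117 CPM in the WT libraries and 99.0, 93.0 and 102 CPM in the KO libraries. This was a log2 fold change of -0.23 (adjusted p = 0.00082), so the groups were separate but much CDK12 RNA was still counted. Edited transcripts are not told from unedited ones by these counts. The study saw no CDK12 protein in the KO cells by western blot, which RNA counts do not measure. Of 12 markers of Müllerian and ovarian carcinoma epithelium, 4 had at most 3 counts in every library, and PAX8 had between 0 and 6 counts. The list summed to 69.6 to 74.9 CPM in WT and 116 to 121 CPM in KO, mostly from KRT18 (59.9 ± 1.96 and 103 ± 2.73 CPM, SD, n = 3), while EPCAM was lower (log2 fold change -0.53). The 6 fibroblast markers summed to 11000 to 11400 CPM in WT and 8520 to 8810 CPM in KO, mostly from COL3A1 and COL1A2, with DCN and LUM at 0 counts in every KO library and all 6 counted in WT. The 6 leukocyte and the 6 endothelial markers each summed to at most 1.23 CPM in any library. The part of these shifts in the results below was not tested.

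Promoters of 4 members with different outcomes are shown first, because E2F factors drive many replication and repair genes in S phase and their sites are short enough to be read by eye. The windows run from 250 bases before to 50 bases after a RefSeq transcript start on GRCh38.p14, on the strand of the gene. Capitals mark letters of the E2F motif TTCCCGC, its variant TTCGCGC, a further variant TTGCCGC or the last variant TTGGCGC, searched on both strands. BLM (chr15:90717096-90717395, plus strand) and RAD54L (chr1:46247438-46247737, plus strand) were lower in KO, BRCA2 (chr13:32315258-32315557, plus strand) did not pass, and RAD51C (chr17:58692323-58692622, plus strand) was higher.
BLM: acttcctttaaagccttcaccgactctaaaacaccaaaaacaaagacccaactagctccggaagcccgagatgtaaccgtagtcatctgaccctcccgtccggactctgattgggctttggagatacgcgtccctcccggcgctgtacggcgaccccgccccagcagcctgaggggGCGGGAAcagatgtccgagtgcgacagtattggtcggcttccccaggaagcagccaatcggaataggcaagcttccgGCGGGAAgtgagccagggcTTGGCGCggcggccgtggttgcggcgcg
RAD54L: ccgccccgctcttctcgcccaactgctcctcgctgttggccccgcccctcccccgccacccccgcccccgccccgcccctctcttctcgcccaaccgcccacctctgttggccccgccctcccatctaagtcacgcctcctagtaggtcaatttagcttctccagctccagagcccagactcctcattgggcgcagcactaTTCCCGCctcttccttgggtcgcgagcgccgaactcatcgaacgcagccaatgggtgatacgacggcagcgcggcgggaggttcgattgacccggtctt
BRCA2: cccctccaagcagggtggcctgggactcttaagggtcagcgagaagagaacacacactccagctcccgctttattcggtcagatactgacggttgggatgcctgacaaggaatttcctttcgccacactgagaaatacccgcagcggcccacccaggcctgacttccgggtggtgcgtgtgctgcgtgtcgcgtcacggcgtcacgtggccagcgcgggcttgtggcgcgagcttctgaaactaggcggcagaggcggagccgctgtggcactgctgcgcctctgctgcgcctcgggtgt
RAD51C: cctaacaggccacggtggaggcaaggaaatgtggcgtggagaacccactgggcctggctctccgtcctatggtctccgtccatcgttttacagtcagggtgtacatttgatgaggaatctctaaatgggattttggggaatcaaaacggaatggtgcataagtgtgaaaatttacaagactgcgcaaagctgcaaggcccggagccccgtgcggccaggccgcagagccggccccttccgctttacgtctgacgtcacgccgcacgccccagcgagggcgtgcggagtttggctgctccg
The BLM window held 3 matches, 1 of them 74 bases before the start, and the RAD54L window held 1, 49 bases before it. The windows of BRCA2 and RAD51C held none, which says only that these letters are not there. Lower and higher members alike included genes with a match and genes without one.

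The table of promoters held 49 windows for 36 of the 40 members, and DNA2, FANCI, RAD54B and RMI2 were not matched. E2F letters were found in 26 of these windows (53.1%), against 13.0% of all 35116 windows and 18.8% of the 16142 windows of tested genes. They stood in 9 of the 14 windows of lower members, in 12 of the 22 windows of members that did not pass and in 5 of the 13 windows of higher members. Counted by gene, 7 of 11 lower members, 12 of 17 that did not pass and 4 of 8 higher members had a match. For tested genes this share was 24.6%. Among the lower members with a match were also FANCC, RAD51AP1, XRCC3, FANCD2 and FANCA, while RBBP8, SLX4, FAAP24 and UBE2T had none. Among the higher members GEN1, RAD51D, BRIP1 and TOP3A had one, while RAD51B, RAD51C, FAN1 and PALB2 had none. The CHR motif of late cell cycle genes, searched as TTTGAA or TTCGAA, was in 16.3% of the members' windows, 16.4% of all windows and 11.7% of those of tested genes. CCAAT was in 36.7%, 34.6% and 34.4%. By outcome CCAAT was in 57.1% of the windows of lower, 31.8% of unpassed and 23.1% of higher members. Counted by gene these shares were 63.6%, 35.3% and 37.5%. These shares are descriptions of sequence, and windows of a gene can overlap. Some windows lie inside the annotated span, by 3.76 kb for RAD51B and by up to 136 kb for RBBP8, so they describe 1 RefSeq start and not every promoter of the gene. Restricted to the 250 bases before the start, the E2F share was 30.6% over the members and 15.9% over tested genes, and the 2 of 13 windows of higher members with a match (15.4%) no longer stood above the latter.

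Of the hub formed by BRCA1, BRCA2 and their direct partners, 2 of 5 genes were higher and none passed as lower. The shares over all genes tested were 31.9% and 32.0%. BRCA1, the ubiquitin ligase subunit that promotes resection, had 77.8, 88.2 and 88.7 CPM in WT and 87.2, 86.0 and 92.4 CPM in KO. The groups overlapped, with WT replicate 1 the lowest of the 6 libraries, and the log2 fold change was 0.06 (95% interval -0.05 to 0.18, adjusted p = 0.318). BRCA2, which loads the recombinase on resected DNA, had 63.9, 77.0 and 71.5 CPM in WT and 70.8, 64.6 and 75.9 CPM in KO. These too overlapped throughout, with a log2 fold change of -0.01 and a 95% interval from -0.14 to 0.12, so a change in either gene as large as that of FANCC lies outside the interval. The sign of both values turned when single libraries were left out. BARD1, the partner that BRCA1 needs for its ligase activity, had a log2 fold change of 0.06 and also did not pass. PALB2, the bridge between BRCA1 and BRCA2, was at 26.5, 28.7 and 30.1 CPM in WT and at 33.1, 33.1 and 32.8 CPM in KO. Each KO library was above each WT library, and PALB2 rose by 17.1% (log2 fold change 0.23, standard error 0.0643, adjusted p = 0.00263), a call that was lost when all libraries were thinned to the smallest total (log2 fold change 0.19, adjusted p = 0.063). BRIP1, a helicase bound by BRCA1, rose from 68.6 ± 1.45 to 78.0 ± 5.64 CPM (SD, n = 3), a log2 fold change of 0.18, and lost its call without KO replicate 3, the highest library at 84.5 CPM (log2 fold change 0.12, adjusted p = 0.0709). BRCA1 spans chr17:43044295-43170245 on the minus strand and BRCA2 chr13:32315086-32400268 on the plus strand of GRCh38.

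Of the 3 members of end resection, 2 were lower, RBBP8 and DNA2, where 32.0% of all genes tested were. RBBP8 (chr18:22798261-23026488, plus strand), known as CtIP, starts resection together with the MRE11 complex. It was at 86.5, 87.8 and 82.2 CPM in WT and at 64.9, 64.7 and 64.6 CPM in KO. The KO libraries were tightly grouped below all WT libraries, a fall of 24.6% (log2 fold change -0.41, standard error 0.0510, adjusted p = 2.63e-08). DNA2 (chr10:68414064-68472121, minus strand), a nuclease and helicase that extends resection, had 76.1, 82.3 and 84.6 CPM in WT against 58.2, 61.5 and 64.0 CPM in KO, again without overlap (log2 fold change -0.40, standard error 0.0550, adjusted p = 1.53e-07). EXO1, the exonuclease of the other long-range route, had a log2 fold change of -0.08 (95% interval -0.19 to 0.03) and did not pass, and its groups overlapped.

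Of the 4 members that anneal or exchange strands, 3 were lower, where 32.0% of all genes tested were, and RAD52 did not pass. RAD54B, a translocase that remodels joined DNA, was counted 271, 278 and 116 times in WT and 172, 194 and 122 times in KO. Scaled to the libraries these were 9.89, 9.28 and 10.4 CPM against 7.0, 7.21 and 6.85 CPM, separate groups that differed by -0.47 on the log2 scale (standard error 0.101, adjusted p = 0.000146). Its exons share 66.0% of their bases with FSBP on the same strand, so how reads were divided between them is uncertain. RAD54L, the related translocase, fell from 64.6 ± 2.39 to 49.4 ± 2.36 CPM (SD, n = 3, log2 fold change -0.39), and 19.9% of its exon bases face LRRC41 on the other strand. RAD51AP1, which stimulates strand invasion, fell from 29.8 ± 1.27 to 23.6 ± 1.75 CPM (log2 fold change -0.33). RAD52, which anneals complementary strands, had a log2 fold change of 0.03.

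The recombinase paralogs, which assemble in 2 complexes that stabilize the recombinase filament, moved in both directions. RAD51B (chr14:67819779-68730218, plus strand) had the largest rise of all members, with 14.5, 13.7 and 14 CPM in WT and 21.9, 18.9 and 21.4 CPM in KO. The groups were well apart, although KO replicate 2 was lower than the other KO libraries, and the rise was 46.9% (log2 fold change 0.55, standard error 0.0796, adjusted p = 3.33e-07). RAD51C (chr17:58692573-58735611, plus strand), the paralog present in both complexes, had 68.8, 67.8 and 64.3 CPM in WT and 92.1, 90.9 and 90.2 CPM in KO. The libraries of each group lay close together and the rise was 35.5% (log2 fold change 0.44, standard error 0.0508, adjusted p = 5.45e-09). RAD51D, which joins RAD51C to XRCC2, was higher by a log2 fold change of 0.16 (adjusted p = 0.0264), a call that 8 of 15 alternatives did not keep, among them the omission of WT replicate 1 or 3 or of KO replicate 1 or 3 (log2 fold change 0.13 to 0.17). Its value was 0.28 after thinning of the libraries to the smallest total. XRCC2 had a log2 fold change of -0.02 and did not pass. XRCC3, the partner of RAD51C in the smaller complex, fell from 23.5 ± 0.595 to 19.3 ± 1.41 CPM (SD, n = 3, log2 fold change -0.27, adjusted p = 0.00161), but 76.7% of its exon bases lie opposite exons of KLC1, and the strand setting of the count is not given in the sources used here.

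**Figure D2:**
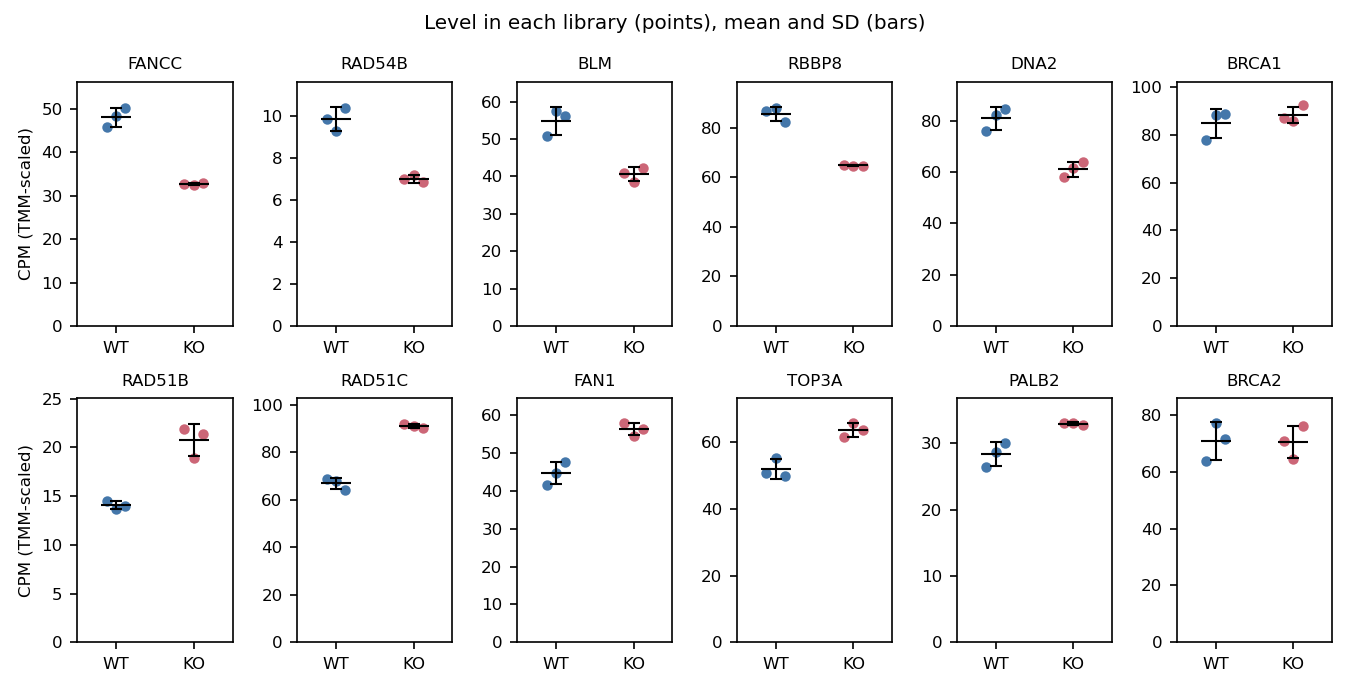
Level in CPM, scaled by TMM, of the 5 members with the largest falls, the 5 with the largest rises, BRCA1 and BRCA2 in each of the 3 WT and 3 KO libraries, with the mean and SD as bars. The groups are separate for the 10 called genes and overlap for BRCA1 and BRCA2.

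The subunits of the BLM complex, which dissolves double Holliday junctions, also parted. BLM (chr15:90717346-90816166, plus strand), its helicase, had 50.7, 57.5 and 56.3 CPM in WT and 41.0, 38.5 and 42.3 CPM in KO. All KO libraries were below all WT libraries, a fall of 25.9% (log2 fold change -0.43, standard error 0.0604, adjusted p = 1.95e-07). TOP3A (chr17:18271428-18315007, minus strand), the topoisomerase of the complex, had 50.6, 55.2 and 49.9 CPM in WT and 61.5, 65.6 and 63.7 CPM in KO. Here every KO library was above every WT library, a rise of 22.0% (log2 fold change 0.29, standard error 0.0558, adjusted p = 4.11e-05). The scaffold subunits RMI1 and RMI2 had log2 fold changes of 0.01 and -0.11, overlapped between groups and did not pass.

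Of the nucleases that cut branched DNA, FAN1 (chr15:30890559-30943108, plus strand), which is recruited by ubiquitylated FANCD2, had 41.6, 44.6 and 47.5 CPM in WT and 57.7, 54.5 and 56.2 CPM in KO. The groups did not overlap and the rise was 26.8% (log2 fold change 0.34, standard error 0.0580, adjusted p = 5.51e-06). GEN1, a Holliday junction resolvase, was higher by a log2 fold change of 0.12 (adjusted p = 0.044), the only called member whose groups overlapped, and 9 of 15 alternatives did not keep the call, among them the omission of WT replicate 1 or 2 or of KO replicate 1 or 3 (log2 fold change 0.07 to 0.13). SLX4, the scaffold on which several nucleases assemble, fell from 31.4 ± 0.409 to 26.3 ± 1.2 CPM (SD, n = 3, log2 fold change -0.25, adjusted p = 0.00117). MUS81 and EME1, the subunits of the endonuclease that binds SLX4, had log2 fold changes of -0.03 and -0.09 and did not pass.

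In the Fanconi core complex the largest fall of all members was that of FANCC (chr9:95099054-95426796, minus strand), a subunit of the part that engages FANCD2. It had 45.8, 48.4 and 50.2 CPM in WT and 32.8, 32.4 and 32.9 CPM in KO. The KO libraries lay within a narrow range well below the WT libraries, a fall of 31.8% (log2 fold change -0.55, standard error 0.0591, adjusted p = 9.62e-10). FAAP24, which binds DNA together with FANCM, was lower by a log2 fold change of -0.24 (adjusted p = 0.0203) and FANCA, another core subunit, by -0.15 (adjusted p = 0.013), calls that 6 and 4 of 15 alternatives did not keep. FAAP24 lost its call without WT replicate 1, KO replicate 1 or KO replicate 2 (log2 fold change -0.23 to -0.20), and its value was -0.51 after thinning of the libraries to the smallest total. FANCA lost its call without KO replicate 1 or 3 (-0.12 and -0.13). The other 6 genes of this group, FANCB, FANCE, FANCF, FANCG, FANCL and FANCM, had log2 fold changes from -0.15 to 0.09 and did not pass. FANCL is the ligase of the complex and FANCM its anchor on DNA. FANCE and FANCG had separate groups all the same, with each KO library lower.

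FANCD2, whose ubiquitylation marks the active pathway, was at 72.1, 72.4 and 74.0 CPM in WT and at 64.6, 62.3 and 63.3 CPM in KO. These groups were narrow and separate, a fall of 12.8% (log2 fold change -0.20, standard error 0.0513, adjusted p = 0.00117). UBE2T, the conjugating enzyme for this step, fell from 69.5 ± 2.59 to 60.1 ± 4.02 CPM (SD, n = 3), a log2 fold change of -0.20 that lost its call when all libraries were thinned to the smallest total (-0.16, adjusted p = 0.07). FANCI, the partner of FANCD2, went from 212 ± 3.54 to 200 ± 1.92 CPM and did not pass (log2 fold change -0.09, adjusted p = 0.096), although its groups were separate. The FANCD2 pseudogene FANCD2P2 took 37 counts in all, against 9359 for FANCD2, and BRCA1P1 took 17, against 11862 for BRCA1. HELQ, a helicase of fork repair, and POLQ, the polymerase of an error-prone joining route on which cells short of recombination depend, had log2 fold changes of -0.01 and 0.05 and did not pass.

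Because a ratio of counts within a library does not depend on the scaling of libraries, 12 pairs of members that act together were also compared as ratios. The pairs were chosen after the values of their genes were seen, so the ratios are descriptions without a test. The ratio of BLM to TOP3A was 1.06 ± 0.0646 in WT and 0.639 ± 0.0447 in KO (SD, n = 3), a log2 change of -0.73. The ratio of RAD51C to XRCC3 went the other way, from 2.86 ± 0.163 to 4.73 ± 0.335, a log2 change of 0.73. That of FANCC to FANCE moved from 2.19 ± 0.0299 to 1.65 ± 0.0627 and that of BLM to RMI1 from 0.884 ± 0.0368 to 0.651 ± 0.0272. The ratio of BRCA1 to BARD1 had the same mean in both groups, 1.66 ± 0.111 in WT and 1.66 ± 0.0723 in KO. In all, 8 of the 12 ratios were separate between groups, and those of BRCA1 to BARD1, RMI2 to RMI1, RAD51B to RAD51C and MUS81 to EME1 overlapped. For comparison, the levels of 66.4% of all genes tested were separate between groups.

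**Figure D3:**
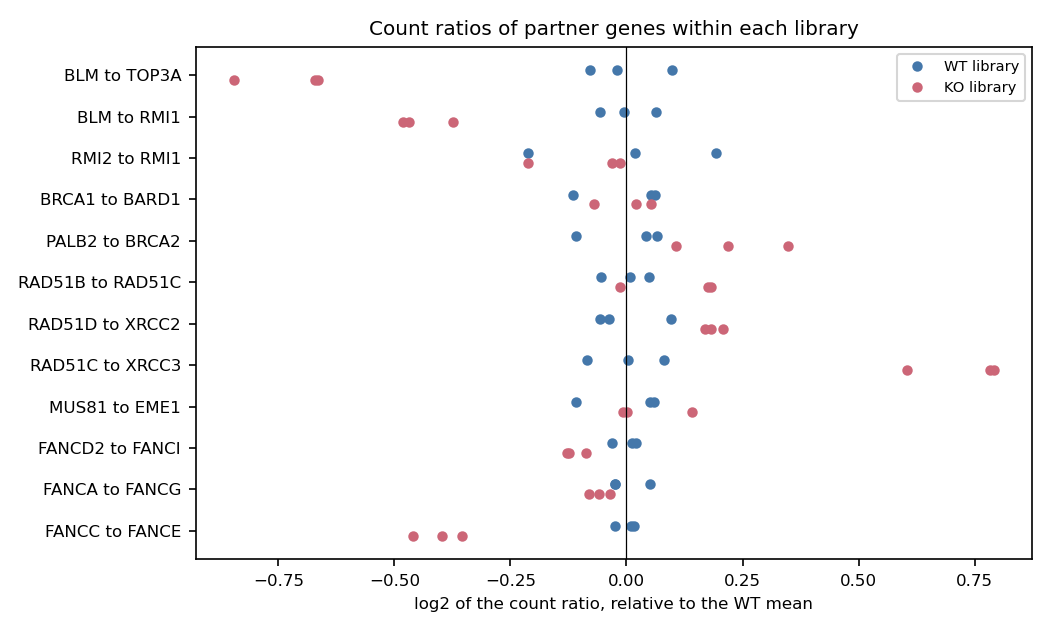
Count ratios of 12 pairs of members in each of the 3 WT and 3 KO libraries, as the log2 of the ratio relative to the WT mean. BLM to TOP3A lies lowest and RAD51C to XRCC3 highest in KO, while BRCA1 to BARD1 overlaps.

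Between genes, levels were compared per kb of the reference transcript. UBE2T was highest in WT at 79.2 CPM per kb, followed by FANCI at 44.8 and FANCG at 29.7 CPM per kb, with RBBP8 and RAD51C both at 26.1. The lowest was FANCB at 2.09 CPM per kb, preceded by RAD51D at 2.80 and FANCM at 3.19 CPM per kb. In KO the level of RAD51C, 35.5 CPM per kb, stood above that of FANCG, 27.9 CPM per kb. The order depends on the length used. Per kb of all annotated exons, UBE2T at 36.0 and FANCB at 0.475 CPM per kb were again the extremes, but RMI1 took the second place at 18.1 and FANCL, with a long list of annotated exons, the second lowest at 0.904 CPM per kb.

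Long and short members were found among both the higher and the lower genes. The longest member, RAD51B at 910 kb, had the largest rise and the next longest, FANCC at 328 kb, the largest fall. Of the 14 members over 80 kb, 2 were higher and 5 lower, where 34.8% of all protein coding genes of that length were higher and 37.9% lower. Of the 15 from 30 to 80 kb, 5 were higher and 4 lower, against 31.3% and 37.9%. Of the 11 under 30 kb, 1 was higher and 4 were lower, against 31.9% and 35.2%.

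The nearest tested protein coding genes on either side of the members, 80 in all, were read to see whether members moved with their surroundings. Of these neighbours 14 passed both thresholds (17.5%, against 15% of all protein coding genes), beside 10 members, none of which did. Those named here were chosen after their values were seen. BRCA2 lay between ZAR1L and N4BP2L1. ZAR1L, which overlaps the annotated start of BRCA2 on the other strand, had 2, 3 and 0 counts in WT and 54, 66 and 40 counts in KO, at least 8.52-fold higher against the floor of 0.270 CPM. N4BP2L1, 0.455 kb beyond the other end, went from 1.37 ± 0.549 to 13.4 ± 1.24 CPM (SD, n = 3, log2 fold change 3.22). BRCA2 between them was at 70.8 ± 6.58 and 70.4 ± 5.62 CPM. FANCC and RBBP8 instead lay between neighbours that were lower too. For FANCC these were AOPEP, which overlaps it (log2 fold change -1.34), and PTCH1, the Hedgehog receptor, 16.2 kb away (36.4 ± 1.66 to 8.29 ± 0.841 CPM, log2 fold change -2.15). For RBBP8 they were MIB1, 927 kb away (log2 fold change -0.91), and CABLES1, 108 kb away (log2 fold change -3.36). RAD51C lay 0.528 kb from IGBP1C, which was higher (log2 fold change 2.73). With 10, 5 and 0 counts of IGBP1C in WT, the size of that change is uncertain. On the other side of RAD51C, 20.2 kb away, PPM1E was lower (log2 fold change -1.98). Over all 21 called members, both neighbours were called in the member's direction for 4 (19.0%), against 20.5% of the 8802 called protein coding genes.

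**Figure D4:**
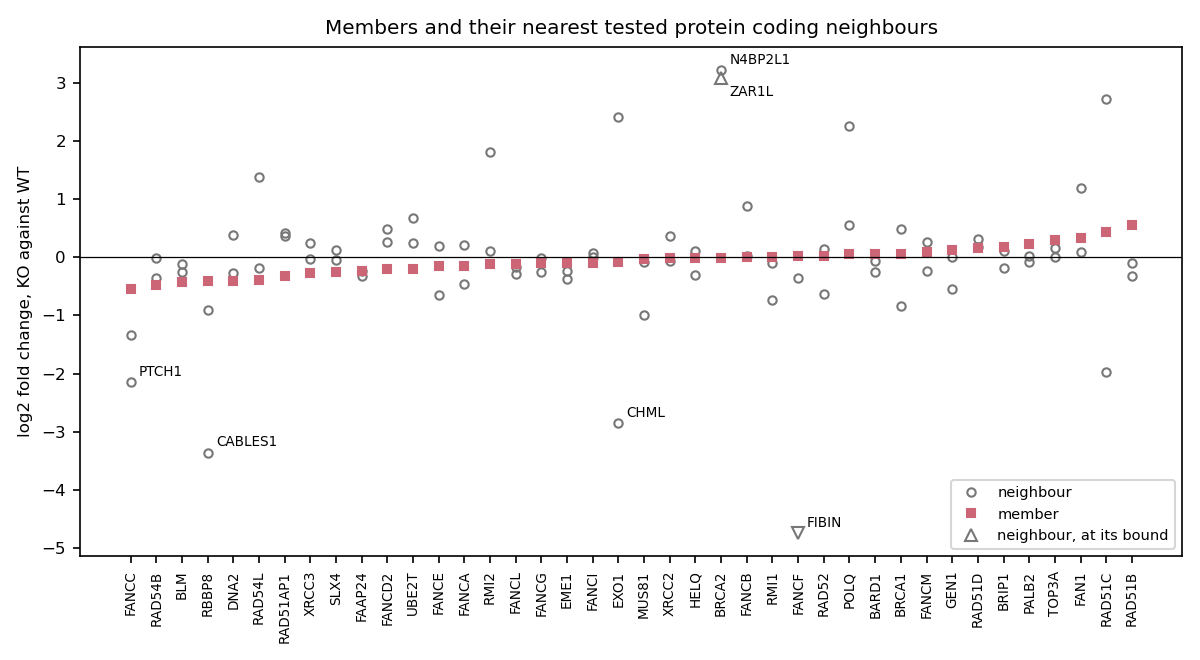
Log2 fold change of KO against WT for each member, ordered by its value, and for its nearest tested protein coding neighbour on each side, with triangles for neighbours at the floor in 1 group, drawn at their bound. Members lie between -0.55 and 0.55, while N4BP2L1 beside BRCA2 reaches 3.22 and CABLES1 beside RBBP8 reaches -3.36.

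A further 56 genes of the pathways, not among the members, were listed by role. FANCD2OS, SLX1A and SLX1B had too few counts to be tested, and the last 2 are near-identical copies whose reads cannot be assigned with certainty. Of the 53 tested, 17 were higher (32.1%), 11 lower (20.8%) and 25 did not pass, with a median log2 fold change of -0.04. Among all genes tested 31.9% were higher and 32.0% lower. Past both thresholds was MRE11, the nuclease that opens resection with RBBP8. It had 48.2, 52.6 and 53.7 CPM in WT and 16.1, 15.8 and 16.9 CPM in KO, and no KO library came near a WT library (log2 fold change -1.66, standard error 0.0665, adjusted p = 1.4e-20). RAD50, its partner, fell from 130 ± 2.73 to 87.5 ± 5.00 CPM (log2 fold change -0.57), while NBN, the third subunit, had 84.5 ± 3.79 and 85.9 ± 3.02 CPM and did not pass. PARPBP, an inhibitor of recombination, was lower as well (log2 fold change -0.55).

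In the other direction RADX, a single-strand binding protein that opposes the recombinase at forks, passed both thresholds. Its 16.6, 17.6 and 17.2 CPM in WT became 46.7, 44.8 and 46.2 CPM in KO, with narrow and distant groups (log2 fold change 1.42, standard error 0.0647, adjusted p = 4.6e-19). RECQL5, a helicase that removes the recombinase from DNA, rose from 27.6 ± 2.92 to 44 ± 0.823 CPM (log2 fold change 0.66). POLN, a translesion polymerase, was low, at 1.46 ± 0.164 CPM in WT and 2.26 ± 0.302 CPM in KO (log2 fold change 0.66), and its call was lost with thinned libraries (0.63, adjusted p = 0.0896). By role, the genes of crosslink excision and bypass had 5 of 7 tested genes higher and none lower, whereas the 53BP1 and shieldin genes, which limit resection, had 1 of 6 lower and none higher. Such small counts stand beside 31.9% of all genes tested that were higher and 32.0% that were lower.

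Many members are made in S phase, so 36 genes of DNA replication and the G1/S transition are given beside them. Of these 27 were lower (75.0%), 6 higher (16.7%) and 3 did not pass, with a median log2 fold change of -0.24, and 3 were lower past both thresholds. Among all genes tested 32.0% were lower, 31.9% higher and 7.73% lower past both thresholds. CCNE2, a cyclin that opens S phase, fell from 3.48 ± 0.586 to 0.528 ± 0.167 CPM (SD, n = 3, log2 fold change -2.63) and POLE2, a subunit of the leading-strand polymerase, from 37.1 ± 1.48 to 13.7 ± 0.631 CPM (log2 fold change -1.44). E2F7, an E2F repressor, was higher (log2 fold change 0.84), as was the origin licensing factor CDT1 (log2 fold change 0.43). The part of this shift in the falls of BLM, RAD54L, RAD51AP1, FANCD2 and the other lower members was not tested.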

How the data were processed

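RNA of 3 WT and 3 KO libraries was compared. The authors deposited raw counts per gene, from reads checked with FastQC, aligned with STAR to GRCh38 and counted with HTSeq. The library kit keeps the strand, but the strand setting of the count, the tool versions and the annotation release are not given in the sources used here. Labels number the libraries 1 to 6, give the genotype of each and name no batch, and nothing says that the libraries came from separate cultures, so p-values measure the spread between these libraries, which may be technical. Replicates of a group are numbered in the order of the labels. Total counts ranged from 11098400 to 30899045 per library.

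Counts were tested with edgeR 4.0.16 in R 4.3.3, with filterByExpr at a minimum count of 10, TMM scaling and the quasi-likelihood test, two-sided, and p-values were corrected by Benjamini-Hochberg across the 16198 genes retained from 60483. The calls were an adjusted p under 0.05 alone, and the same with a log2 fold change above 1 or below -1, as in the study's methods. CPM used TMM-scaled totals, and the biological coefficient of variation was 4.35%. The members and lists were chosen with earlier results of these data known. Every member past the adjusted p is named, the 5 largest in each direction library by library, as are BRCA1, BRCA2 and FANCD2, other pathway genes past both thresholds or among the 3 largest in each direction, the 2 largest S phase genes in each direction, and CDK12. NBN, the neighbours and the ratio pairs were named after their values were seen.

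Positions, exon lengths and overlaps come from GENCODE release 44, which held 56321 of the listed genes, and promoter windows from RefSeq. The fits were tested on simulated data for 16171 genes with a common coefficient of variation, in which few genes were changed. There edgeR called 57 of 66 genes with a true absolute log2 fold change of 0.5, with 12 false calls. The simulation does not cover data in which 63.9% of genes pass, as here. The alternatives were voom/limma 3.58.1, DESeq2 1.42.0, RLE and upper-quartile scaling, 2 other filters, an adjusted p under 0.01, a test against a fold of 1.2, thinning to the smallest total and the omission of each library. Python 3.11.15 with pandas 2.3.3 and scipy 1.17.1 served for the rest. Splicing and premature polyadenylation need the reads and were not analysed here.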

Additional observations from a re-analysis of the deposited data

How the results depend on the processing

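For 34 named genes under 15 alternatives, 463 of 509 values kept the direction and the side of the threshold, 41 lost the call and 5 changed sign. The sign changes were those of BRCA2, 0.02 with upper-quartile scaling, 0.01 with at least 10 counts in every library, 0.06 without WT replicate 2 and 0.05 without KO replicate 2, and of BRCA1, -0.01 without WT replicate 1 in a range up to 0.1 over the omissions, none of which was called. FANCC, RAD54B, BLM, RBBP8, DNA2, RAD54L, RAD51B and RAD51C kept their calls under all 15 alternatives, and FAN1, TOP3A, RAD51AP1, XRCC3, SLX4 and FANCD2 lost theirs in the test against a fold of 1.2 alone. Against that fold 2 members were higher and 6 lower, as were 9 and 6 other pathway genes, 2 and 14 S phase genes and 3110 and 2969 of all genes, since the test asks for a larger change. With at least 10 counts in every library, 13405 genes were tested, of which 568 were higher and 684 lower past both thresholds. This filter also leaves out genes with few counts in only 1 group. The median log2 fold change of the members was -0.03 under this filter and with upper-quartile scaling, which moved the median of all genes by 0.028. Leaving out 1 library at a time, this median lay between -0.09 (without WT replicate 1) and -0.05, the number of members higher between 5 (without KO replicate 3) and 8 and the number lower between 11 and 14. The E2F share of the members' promoter windows was 30.6% for the 250 bases before the start alone. DESeq2 called 6 members higher and 12 lower. The cause of these shifts was not tested otherwise. No paired analysis was possible because the labels number the libraries 1 to 6 and share no replicate number between WT and KO. Reads per library limit the precision most for RAD54B, FAAP24, HELQ and FANCB, at or under 12.5 CPM in WT.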

Other observations

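Chromosome 17 carries 6 members, BRCA1, BRIP1, EME1, RAD51C, RAD51D and TOP3A, of which 4 were higher in KO and 0 lower, with a median log2 fold change of 0.17. Among the 786 other tested protein coding genes of chromosome 17, 26.7% were higher and 41.6% lower, with a median of -0.07. On chromosome 3 the other 704 tested protein coding genes were more often higher (61.5%) than lower (16.6%), with a median log2 fold change of 0.23. FANCD2 there was lower (-0.20) and POLQ did not pass (0.05). The study's composite karyotype of the KO clone lists a gain of chromosome 3 and a loss of chromosome 17, among other gains and losses on the doubled set. Copy number was not analysed here, and its part in these values was not tested.

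RTEL1, a helicase that dismantles recombination intermediates, was low, with 1.22 ± 0.458 CPM in the WT and 1.31 ± 0.213 CPM in the KO libraries (SD, n = 3), and 52.9% of its exon bases are shared on the same strand with RTEL1-TNFRSF6B. How reads of such overlapping genes were assigned is not given in the sources used here. EXO1, which did not pass, lay between CHML, 208 kb away, at 36.0 ± 0.538 CPM in WT and 5.13 ± 1.11 CPM in KO (log2 fold change -2.85), and PLD5, 188 kb away, at 0.168 ± 0.171 and 0.627 ± 0.167 CPM (log2 fold change 2.41). FANCF, which did not pass, had FIBIN as its neighbour, 4370 kb away, with 127, 147 and 45 counts in WT and 0 counts in the KO libraries, at least 26.8-fold lower against the floor of 0.169 CPM.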
